A study of Arabidopsis thaliana with 18 samples.

Results

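The comparison described here sets aff1-3 seedlings treated with IAA against wild-type (Wt; Col-0) seedlings treated with IAA. It was chosen by the sample labels alone and holds 6 of the 18 samples of the series, 3 of aff1-3 and 3 of Wt. AFF1 is an F-box protein, the subunit by which an SCF-type E3 ubiquitin ligase recognises the proteins it marks for degradation, and aff1-3 is a Salk T-DNA insertion line in the Col-0 background that the labels call aff1-2. All plants were 4 d old, were grown under continuous light and spent 2 h in liquid medium, either with 10 μM IAA, the natural auxin indole-3-acetic acid, or with ethanol alone (mock). That concentration is the one in the study's methods, and the treatment text of the labels gives the same figure in mM. Mock-treated aff1-3 and Wt seedlings, and mock- and IAA-treated seedlings of a second mutant, aff1-1, were used beside the main comparison, again with 3 samples a group. RNA came from whole seedlings, so shoot and root were measured together. Nothing in the labels says whether the samples of a group came from separate cultures, and p-values therefore measure only the spread between these samples.

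Auxin acts by bringing Aux/IAA repressors to the TIR1/AFB F-box receptors, after which the repressors are degraded and the ARF transcription factors that they hold back can act on their targets. ARF7 and ARF19 drive the LBD genes that start lateral roots. Genes that answer to auxin within hours include the Aux/IAA genes themselves, the GH3 genes, whose enzymes conjugate auxin to amino acids, and the SAUR genes.

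Total counts were between 12610301 and 23456012 in IAA-treated aff1-3 and between 16901849 and 31293515 in IAA-treated Wt, and the third aff1-3 sample was the shallowest of all 18. Samples of one group correlated with Spearman's rho of 0.9885 to 0.9915 in aff1-3 and 0.9934 to 0.9943 in Wt, across genes, and no pair differed by less than sampling noise. Light-harvesting and Rubisco transcripts, the markers of green shoot tissue, summed to between 102900 and 115600 CPM (counts scaled to library size with TMM factors) in aff1-3 and between 98400 and 105000 CPM in Wt. AFF1 itself (AT3G49150; chr3:18218858-18220430, plus strand, TAIR10.1) had 3.16, 2.69 and 3.63 CPM in aff1-3 and 0.284, 0.253 and 0.0437 CPM in Wt. This is 173 counts over the aff1-3 samples and 14 over the Wt samples, a ratio of 15.4 per total count (95% exact interval 8.96 to 28.8, counting error only). The AFF1 count was thus higher, not lower, in the insertion line, and the deposited gene counts do not show which part of the transcript those reads cover. AFF1 had 0.11, 0 and 0 CPM in the 3 IAA-treated aff1-1 samples. Seed storage transcripts, which mark embryo tissue, summed to 6.581, 7.526 and 6.715 CPM in aff1-3 and 50.02, 4.456 and 4.674 CPM in Wt, where the first sample stood apart, and edgeR, limma and DESeq2 called 0 of the 7 genes, with 0 at an unadjusted p under 0.05.

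A pair of genes rested on 1 sample each. AT2G41450, annotated as an N-acetyltransferase, had 0.953, 1.2 and 0.79 CPM in aff1-3 and 1.25, 21700 and 1.05 CPM in Wt, where the second sample held 688174 of its counts on this gene. MAPKKK9 (AT4G08480), a kinase gene, had 276, 3.59 and 3 CPM in aff1-3 and 3.58, 3.16 and 4.06 CPM in Wt. These were the only called genes whose aff1-3 and Wt values overlapped, and both were singled out after their values were seen.

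Of 19383 genes tested, 915 differed between IAA-treated aff1-3 and Wt at an adjusted p below 0.01, which is 4.72% of them (quasi-likelihood test of edgeR, p-values adjusted by Benjamini-Hochberg over all genes tested, as for every adjusted p given here). Expression was higher in aff1-3 for 658 genes (3.39% of those tested) and lower for 257 (1.33%). The aff1-3 and Wt samples did not overlap in 657 of the higher and 256 of the lower genes, and also did not in 29.7% of all genes tested (15.6% on the higher side and 14% on the lower). Leaving AT2G41450 and MAPKKK9 out of the fit gave 926 genes. The differences were mostly modest. The genes higher in aff1-3 had a median log2 difference of 0.72 (interquartile range 0.52 to 1.16), and 207 of them exceeded 1 on the log2 scale, against a median of -0.75 (interquartile range -1.01 to -0.56) and 65 beyond 1 among the lower genes. Over all genes tested, the median was -0.01. Without the third aff1-3 sample 601 genes were called, and without the first, the second or the third Wt sample 585, 587 and 509.

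**Figure D1:**
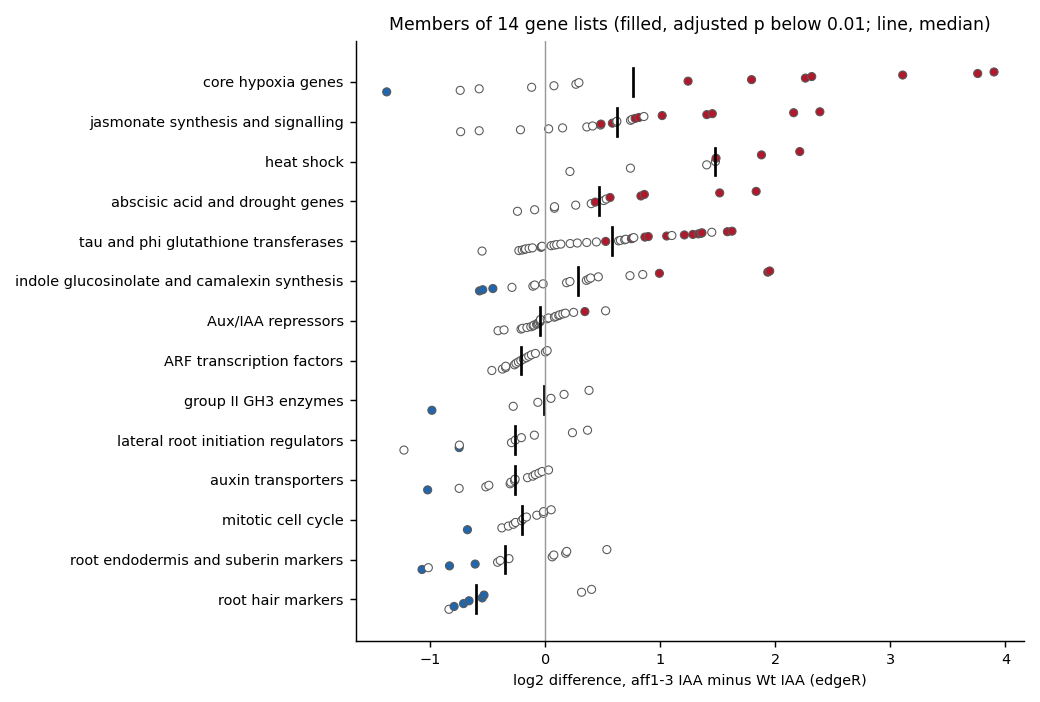
Log2 difference between IAA-treated aff1-3 and Wt (x axis, aff1-3 minus Wt) for every tested member of 14 gene lists (rows). Filled points passed an adjusted p below 0.01, red higher and blue lower in aff1-3, open points did not, and black lines are list medians. The hypoxia, jasmonate, heat shock, drought and glutathione transferase lists lie mostly right of 0 with medians from 0.47 to 1.48, and the root hair markers lie mostly left of it with a median of -0.61.

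Genes known for their induction by low oxygen were among the largest rises. In plants, oxygen is sensed through the group VII ERF transcription factors, which plant cysteine oxidases (PCO) oxidise and so mark for degradation, and which switch on a small core set of genes when oxygen runs short. Of 14 such genes tested, 7 were higher in aff1-3 (50% against 3.39% of all genes) and 1 was lower, with a median log2 difference of 0.77. The members of this and the other lists were chosen with earlier results of these data known. Their shares therefore describe those members and are not a test of the list. HRA1 (AT3G10040; chr3:3096345-3098417, minus strand), a transcription factor that dampens the hypoxia response, had 32.2, 33.1 and 45 CPM in aff1-3 and 3.24, 2.56 and 2.4 CPM in Wt. That is a 13.5-fold higher level (log2 difference 3.76, SE 0.30, adjusted p = 4.28e-08). LBD41, a LOB-domain transcription factor induced by hypoxia, had 125, 125 and 170 CPM in aff1-3 and 27.9, 32.3 and 27 CPM in Wt (log2 difference 2.26, SE 0.16, adjusted p = 1.12e-08). The lowest aff1-3 sample stood far above the highest Wt sample in both genes.

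The oxygen-sensing enzymes moved with them. PCO1 had 16.2, 16.5 and 19.9 CPM in aff1-3 and 7.5, 8.06 and 6.51 CPM in Wt, and PCO2 had 11.3, 10.8 and 13.8 CPM in aff1-3 and 3.47, 3.44 and 3.36 CPM in Wt. HRE2, one of the group VII ERF genes, was higher by 2.32 on the log2 scale at a low level (adjusted p = 0.000957), and this call was lost without the second aff1-3 sample (adjusted p = 0.0117). AT4G10265 and AT4G10270, adjacent genes annotated as wound-responsive, were higher by 3.901 and 3.107 on the log2 scale. AT4G10270 overlaps genes on the opposite strand, from which its reads cannot be told apart if counting ignored strand. ADH1, the alcohol dehydrogenase of ethanolic fermentation and a classical hypoxia gene, went the other way, with 92.4, 104 and 92.4 CPM in aff1-3 and 257, 230 and 263 CPM in Wt (log2 difference -1.38, SE 0.16, adjusted p = 4.2e-06). PDC1, which acts one step before ADH1, differed by 0.27 (adjusted p = 0.404), SUS1 and SUS4, the sucrose synthases of the list, by -0.58 and -0.74 (adjusted p = 0.0181 and 0.0525), and the haemoglobin gene PGB1 by 0.08 (adjusted p = 0.819). The third aff1-3 sample was the highest of its group for HRA1, LBD41, PCO1, PCO2, AT4G10265 and AT4G10270, and 7 genes of the list remained higher without it. The list sum overlapped between genotypes, at 462.3, 491.8 and 582.7 CPM in aff1-3 and 479.2, 457.5 and 479.5 CPM in Wt.

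**Figure D2:**
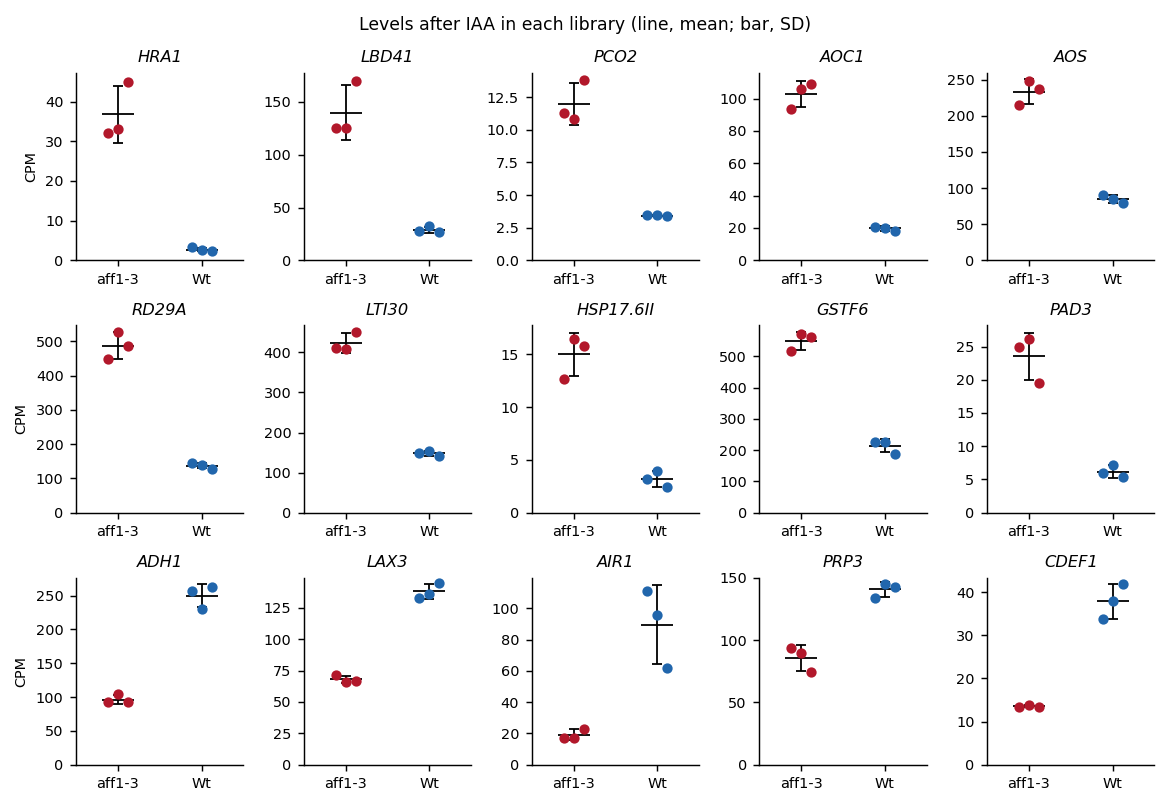
CPM (y axes, each from 0) of 15 genes in each of the 3 IAA-treated aff1-3 samples (red, left) and the 3 IAA-treated Wt samples (blue, right), with the mean and SD. In each panel the aff1-3 and Wt samples do not overlap, as in every called gene but AT2G41450 and MAPKKK9. The first 10 genes were higher in aff1-3, such as HRA1 at 32.2 to 45 CPM against 2.4 to 3.24 CPM in Wt. ADH1, LAX3, AIR1, PRP3 and CDEF1 were lower.

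Genes of jasmonate synthesis were higher in aff1-3. Jasmonate is the wound hormone, made from linolenic acid by lipoxygenases (LOX), allene oxide synthase (AOS), allene oxide cyclases (AOC) and OPR3, and it acts through the JAZ repressors, which its own signalling induces. Of 22 genes tested, 9 were higher in aff1-3 (40.9%) and 0 lower, with a median log2 difference of 0.62, and 19 of the 22 differences were positive. AOC1 (chr3:9403779-9405338, plus strand) had 93.8, 106 and 109 CPM in aff1-3 and 20.9, 20 and 18.3 CPM in Wt (log2 difference 2.39, SE 0.16, adjusted p = 8.77e-09). Its neighbour AOC2 had 627, 683 and 727 CPM in aff1-3 and 157, 160 and 138 CPM in Wt (log2 difference 2.16). AOS stood at 215, 248 and 237 CPM in aff1-3 and at 90.5, 85.5 and 79.6 CPM in Wt. AOS and the AOC enzymes act in sequence. The genotypes did not overlap in these genes, as in every called gene but AT2G41450 and MAPKKK9.

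The other called genes of the list differed by less than AOC1 and AOC2. OPR3 was higher by 0.78 and LOX3 by 1.02, and CYP94C1, which oxidises and so inactivates jasmonoyl-isoleucine, by 1.404 (13, 13.8 and 14.7 CPM in aff1-3, 6.59, 5.12 and 4.06 CPM in Wt). JAZ3, JAZ9 and JAZ10 were higher by 0.48, 0.58 and 0.81. VSP1 and VSP2, vegetative storage proteins, differed by -0.58 and 0.62 (adjusted p = 0.319 and 0.132), and MYC2, the main transcription factor of the pathway, by 0.03 (adjusted p = 0.928), none of them past the threshold. The number of jasmonate genes called fell to between 6 and 8 when any 1 of the 6 samples was left out and was 12 with limma.

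Drought and cold genes formed a further group. Of 14 genes known for induction by abscisic acid or drought, 6 were higher in aff1-3 (42.9%) and 0 lower, with a median of 0.47. RD29A (AT5G52310), a hydrophilic protein gene used as a marker of drought, cold and abscisic acid, had 450, 527 and 487 CPM in aff1-3 and 144, 139 and 128 CPM in Wt (log2 difference 1.83, SE 0.14, adjusted p = 2.48e-08). The dehydrin LTI30 had 412, 408 and 452 CPM in aff1-3 and 148, 155 and 141 CPM in Wt (log2 difference 1.52, SE 0.11, adjusted p = 1.54e-08). The dehydrins COR47 and ERD10 were higher by 0.86 and 0.56, KIN2 by 0.83 and ABI1, a phosphatase that restrains abscisic acid signalling, by 0.43. The calls were uneven within the list. RD29B and RAB18, which respond chiefly to abscisic acid, differed by -0.09 and 0.53 (adjusted p = 0.892 and 0.215), and NCED3, which makes its precursor, by -0.24 (adjusted p = 0.726). Without the third Wt sample only 3 genes of the list were called.

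RD29A is the textbook case of a promoter that answers to drought and cold through the dehydration-responsive element, whose core is CCGAC. The 250 bases before the RefSeq gene start (TAIR10.1) of 4 genes are shown, those of RD29A and LTI30 because these 2 of the 6 called drought genes hold that core there, that of LBD41 because it holds a G-box and that of LAX3, a gene lower in aff1-3, because it holds TGTCGG. None of the 4 windows holds TGTCTC. They are taken from the RefSeq genome, 5′ to 3′ on the strand of the gene. Capitals mark CCGAC, the G-box CACGTG and the auxin response elements TGTCTC and TGTCGG on either strand. TGTCGG contains the reverse complement of CCGAC, so a run of 6 capitals reading TGTCGG or CCGACA counts under both names.
RD29A (chr5:21240467-21240716, plus strand): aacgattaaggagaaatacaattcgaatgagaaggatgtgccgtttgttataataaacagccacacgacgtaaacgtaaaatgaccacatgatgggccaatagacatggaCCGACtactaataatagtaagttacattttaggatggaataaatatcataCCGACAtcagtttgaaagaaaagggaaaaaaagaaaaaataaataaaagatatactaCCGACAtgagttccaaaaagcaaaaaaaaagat
LTI30 (chr3:18940393-18940642, plus strand): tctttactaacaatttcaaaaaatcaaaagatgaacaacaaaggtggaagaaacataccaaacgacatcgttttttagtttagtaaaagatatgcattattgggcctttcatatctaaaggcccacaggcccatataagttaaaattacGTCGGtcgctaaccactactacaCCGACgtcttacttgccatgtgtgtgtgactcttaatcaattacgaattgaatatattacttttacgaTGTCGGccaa
LBD41 (chr3:538127-538376, minus strand): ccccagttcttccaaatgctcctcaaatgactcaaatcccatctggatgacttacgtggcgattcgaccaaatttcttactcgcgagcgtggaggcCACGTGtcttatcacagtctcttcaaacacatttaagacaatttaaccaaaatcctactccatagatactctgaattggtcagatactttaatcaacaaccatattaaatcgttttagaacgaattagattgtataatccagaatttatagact
LAX3 (chr1:29203419-29203668, minus strand): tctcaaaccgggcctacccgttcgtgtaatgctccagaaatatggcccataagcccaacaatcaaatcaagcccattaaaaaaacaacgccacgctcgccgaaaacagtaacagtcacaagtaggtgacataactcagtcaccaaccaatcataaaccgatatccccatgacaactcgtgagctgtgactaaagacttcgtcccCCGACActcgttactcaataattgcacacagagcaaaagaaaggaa

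The RD29A window holds CCGAC at 140, 90 and 33 bases before the start, and that of LTI30 at 101, 78 and 9 bases. TGTCGG coincides with the 2 nearer RD29A cores, with the last LTI30 core and with the only core of the LAX3 window, 46 bases before the start, and the G-box of LBD41 lies 154 bases before it. Motifs were searched on both strands. Over the called genes, CCGAC was found in 15.9% of 656 windows of genes higher in aff1-3, in 7% of 257 windows of genes lower in aff1-3 and in 12.9% of all 19114 windows. The G-box was found in 11%, 4.67% and 7.4% of the same windows, and TGTCGG in 7.47%, 2.33% and 4.65%. TGTCTC, the element first described in auxin-induced promoters, was about as frequent in all of them, at 11%, 10.9% and 10.6%. A match describes the letters in the window and not a site in use.

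Heat shock and detoxification genes were higher as well. Of 7 heat shock genes tested, 3 were higher in aff1-3 (42.9%) and 0 lower, and all 7 differences were positive with a median of 1.48. HSP17.6II, a small chaperone, had 12.7, 16.5 and 15.8 CPM in aff1-3 and 3.18, 3.98 and 2.4 CPM in Wt (log2 difference 2.21, SE 0.27, adjusted p = 8.48e-06). HSP90.1, the heat-inducible HSP90, had 53.7, 68 and 52 CPM in aff1-3 and 24.9, 21.3 and 16.2 CPM in Wt. HSP17.4 was the third, at 5.33, 6.58 and 5.85 CPM in aff1-3 and 1.65, 2.09 and 1 CPM in Wt, and its call was lost without the third Wt sample (adjusted p = 0.013). HSFA2, the transcription factor that sustains the heat response, differed by 1.48 but did not pass (adjusted p = 0.0269).

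Tau and phi glutathione transferases attach glutathione to reactive compounds and respond to many stresses. Of 38 tested, 13 were higher in aff1-3 (34.2%) and 0 lower, with a median of 0.58. The called members spanned low to abundant genes. GSTF6 had 517, 571 and 563 CPM in aff1-3 and 227, 226 and 189 CPM in Wt (log2 difference 1.36, SE 0.13, adjusted p = 4.3e-07), though 10.3% of its exonic 50-base words occur elsewhere in the genome. GSTU4 had 46.8, 63 and 61.5 CPM in aff1-3 and 20.1, 20.8 and 16 CPM in Wt (log2 difference 1.58). GSTF8, the most abundant of the called members, had 1610, 1590 and 1430 CPM in aff1-3 and 1080, 1100 and 1040 CPM in Wt (log2 difference 0.53). The abundant GSTU19 and GSTF9 differed by 0.28 and -0.18 (adjusted p = 0.0753 and 0.278). Summed over the list, the level was between 5731 and 5755 CPM in aff1-3 and between 4043 and 4244 CPM in Wt.

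Genes of indole defence compounds were called in both directions. CYP79B2 and CYP79B3 turn tryptophan into indole-3-acetaldoxime, the shared precursor of indole glucosinolates and camalexin, and both were lower in aff1-3, by 0.57 and 0.54 on the log2 scale. CYP79B3 had 31.6, 32.7 and 28.1 CPM in aff1-3 and 45, 45.6 and 44.6 CPM in Wt. CYP83B1, the next enzyme towards indole glucosinolates, was lower by 0.46 as well. PAD3, CYP71A13 and GGP1 were higher. PAD3, which makes camalexin in the last step, had 24.9, 26.2 and 19.5 CPM in aff1-3 and 5.91, 7.2 and 5.29 CPM in Wt (log2 difference 1.93, SE 0.22, adjusted p = 3.28e-06). CYP71A13, which acts on the aldoxime at the branch, had 1.73, 2.24 and 2.05 CPM in aff1-3 and 0.341, 0.695 and 0.437 CPM in Wt, and GGP1, which processes the glutathione conjugate in both branches, was higher by 0.99. Of the 18 genes of the list, 3 were thus higher and 3 lower (16.7% each), and 12 did not pass. Only 1 of the 3 lower calls held without the third aff1-3 sample, without the first or the second Wt sample, or at equal depth, and the CYP71A13 call was lost without the third Wt sample and at equal depth. In the flavonoid list 3 of 12 genes were higher (25% against 3.39% of all genes), MYB12, CHI and DFR, by 0.79, 0.52 and 0.91. The DFR call was lost whenever any 1 of the 6 samples was left out. Of the 12 differences 9 were positive and 3 negative. The summed level of the list overlapped between genotypes (1221, 1103 and 1030 CPM in aff1-3, 1161, 1107 and 1094 CPM in Wt).

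Some of the largest differences lay outside these lists. Of all 28278 genes, 2 (0.00707%) had at most 3 counts in every sample of one genotype and at least 20 in every sample of the other, AT5G09570 on the higher side and scpl14 on the lower. AT5G09570, a Cox19-like CHCH protein gene, had 72, 40 and 23 counts in aff1-3 and 3, 1 and 0 in Wt, a ratio of 42.2 per total count (95% exact interval 16.1 to 157, counting error only). FAMT, a methyltransferase gene, had 5.41, 7.78 and 7.51 CPM in aff1-3 and 0.853, 0.506 and 0.743 CPM in Wt (log2 difference 3.33). AT1G33055, a short uncharacterised gene, had 23.9, 24.4 and 49.6 CPM in aff1-3 and 3.3, 3.25 and 3.58 CPM in Wt (log2 difference 3.25). AT3G60176, a non-coding RNA gene, had 1.39, 1.5 and 1.19 CPM in aff1-3 and 0, 0.221 and 0 CPM in Wt, or 77 against 7 counts, a ratio of 13.8 (95% exact interval 6.36 to 35.3). AT3G22250, a glycosyltransferase gene, and AT3G27970, an exonuclease family gene, were higher by 3.42 and 3.26 at levels below 3 CPM in every sample. AT3G19020, a leucine-rich repeat gene, had 4.46, 3.79 and 26 CPM in aff1-3 and 0.796, 0.948 and 0.699 CPM in Wt, and its call was lost without the third aff1-3 sample or the third Wt sample. RAP2.6, an ERF transcription factor of stress responses, was among the 5 rises named for the smallest p. It had 125, 143 and 162 CPM in aff1-3 and 42.5, 45.2 and 36.1 CPM in Wt (log2 difference 1.79, SE 0.12, adjusted p = 1.12e-08).

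Members of the auxin and lateral root lists were among the genes lower in aff1-3. LAX3, an auxin importer that auxin induces in the cells overlying a lateral root primordium, had 71.1, 65.6 and 67 CPM in aff1-3 and 133, 136 and 145 CPM in Wt (log2 difference -1.02, SE 0.10, adjusted p = 9.45e-07). EXPA17, an expansin that loosens walls during emergence, had 0.866, 0.797 and 1.5 CPM in aff1-3 and 4.04, 3.63 and 3.36 CPM in Wt (log2 difference -1.85, adjusted p = 0.00195), a call lost without the first or the second aff1-3 sample. With mock its log2 difference was larger, at -4.396 (adjusted p = 4.37e-06). IAA raised EXPA17 9.12-fold in aff1-3 and 1.56-fold in Wt, and the change of 2.544 between treatments did not pass (adjusted p = 0.107). PUCHI, an AP2-type regulator of primordium patterning, had 16.6, 19 and 16.6 CPM in aff1-3 and 30, 28.6 and 29.2 CPM in Wt. GH3.1 had 55.5, 61.8 and 51.7 CPM in aff1-3 and 111, 114 and 110 CPM in Wt (log2 difference -0.99, SE 0.09, adjusted p = 4.3e-07). In none of these 4 genes did the samples of the genotypes overlap, as in every called gene but AT2G41450 and MAPKKK9.

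Few other members of these lists passed. Of 6 group II GH3 genes tested only GH3.1 passed (16.7% lower, against 1.33% of all genes), and GH3.2, GH3.3, GH3.5 and GH3.6, which are more abundant, differed by 0.05, 0.16, -0.28 and -0.07 (adjusted p from 0.295 to 0.943). Of 9 lateral root initiation regulators 7 had negative differences and only PUCHI passed (11.1% lower). LBD18 and LBD19, LOB-domain transcription factor genes, differed by -0.75 and -1.23 (adjusted p = 0.0249 and 0.0381), and LBD18 passed with limma and DESeq2 (adjusted p = 0.00221 and 0.00467). LBD17 and GATA23 differed by -0.21 and -0.10 (adjusted p = 0.37 and 0.825). With mock LBD17 was higher in aff1-3 by 0.914 (adjusted p = 0.00191), and IAA raised it 9.22-fold in aff1-3 and 20.1-fold in Wt. The difference after IAA minus that with mock was -1.121 for LBD17, which did not pass (adjusted p = 0.025, DESeq2 0.00179, limma 0.123). For GATA23, LBD18 and LBD19 it was -1.024, -0.981 and 0.81 (adjusted p = 0.245, 0.318 and 0.85). Summed over the list, the level was 239.8, 249.8 and 253.7 CPM in aff1-3 and 284.6, 283.1 and 276 CPM in Wt. LBD29, the most abundant LBD gene of the list, had 100, 94.4 and 110 CPM in aff1-3 and 118, 123 and 123 CPM in Wt (log2 difference -0.26, adjusted p = 0.353). Of 14 auxin transporter genes 13 had negative differences and LAX3 alone passed (7.14% lower). The transporter list summed to 802.6, 906.5 and 800.4 CPM in aff1-3 and to 1027, 1025 and 1031 CPM in Wt, without overlap. ABCB19, which carries auxin out of cells, differed by -0.52 (adjusted p = 0.0425), and AUX1, the main importer of the root tip, by -0.27 (adjusted p = 0.185).

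Aux/IAA differences lay between -0.411 and 0.524 on the log2 scale and ARF differences between -0.465 and 0.016. Among 26 Aux/IAA genes 1 passed (3.85% higher, near the 3.39% of all genes). It was IAA28, at 47.2, 45.2 and 48.8 CPM in aff1-3 and 35.8, 37 and 38.2 CPM in Wt, and this call was lost when any 1 of the 6 samples was left out. The list median was -0.05. Of 15 ARF genes 0 passed with edgeR, limma or DESeq2 (4 had an unadjusted p under 0.05), where edgeR called 4.72% of all genes. Of these 15, 13 had negative differences and the median was -0.21, where the median of all genes was -0.01. ARF19 differed by -0.34 (adjusted p = 0.276). ARF7 had 20.3, 23.2 and 18.6 CPM in aff1-3 and 21.8, 22.6 and 21.7 CPM in Wt (log2 difference -0.09, adjusted p = 0.858). Of 12 mitotic genes 11 had negative differences and 1 passed (8.33% lower, against 1.33% of all genes). It was the D-type cyclin CYCD3;1, with 10.2, 11.5 and 8.93 CPM in aff1-3 and 15.7, 16.8 and 16.6 CPM in Wt (log2 difference -0.68, SE 0.11, adjusted p = 0.000228).

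Markers of the root surface were lower. Of 8 root hair genes tested, 5 were lower in aff1-3 (62.5% against 1.33% of all genes) and 0 higher, with a median of -0.61. The 5 are wall and trafficking genes of the growing hair. PRP3, a proline-rich wall protein, had 93.9, 89.6 and 74.2 CPM in aff1-3 and 134, 145 and 143 CPM in Wt (log2 difference -0.71, SE 0.12, adjusted p = 0.000508). The expansins EXPA7 and EXPA18 were lower by 0.53 and 0.55, the phosphatidylinositol transfer protein COW1 by 0.79 and the extensin LRX1 by 0.66. The transcription factors that specify root hairs did not pass: RHD6 differed by 0.32, RSL4 by 0.40 and RSL2 by -0.84 (adjusted p = 0.516, 0.208 and 0.0695). Summed over the list, the level was 196.4, 198.3 and 175.1 CPM in aff1-3 and 264.1, 298.2 and 296.9 CPM in Wt, and 3 to 5 of the genes were called when 1 sample was left out. In whole seedlings, fewer root hair cells and less RNA per cell cannot be told apart.

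Suberin genes showed a weaker pattern. ASFT, FAR4 and FAR5, which make the aromatic and alcohol parts of suberin, were lower by 0.61, 1.07 and 0.83. They were the 3 of 12 endodermis and suberin genes called lower (25% against 1.33% of all genes), and 0 were higher. Of the 12 differences 7 were negative and 5 positive, the largest at 0.535, with a median of -0.35. Leaving out the first or the third aff1-3 sample, or the third Wt sample, ended all 3 suberin calls. CDEF1, a cutinase gene, was lower with 13.4, 13.8 and 13.4 CPM in aff1-3 and 33.8, 38 and 41.9 CPM in Wt (log2 difference -1.49, SE 0.14, adjusted p = 4.24e-07). In the shoot photosynthesis list 2 of 20 genes were lower (10% against 1.33% of all genes), LHCB2.2 and LHCB4.2, by 0.46 and 0.40. Of the 20 differences 14 were negative and 6 positive. Both calls were lost without the second or the third aff1-3 sample and without the first or the second Wt sample.

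The 10 largest falls were spread over genes of different kinds. AIR1 (AT4G12550), a gene first found as auxin-induced in root cultures, had 17.1, 17 and 23.1 CPM in aff1-3 and 111, 95.6 and 62 CPM in Wt (log2 difference -2.24, SE 0.20, adjusted p = 2.13e-07). With mock AIR1 differed by -2.061, and IAA did not change it past the threshold in Wt (log2 difference 0.211, adjusted p = 0.508). Of its exonic 50-base words 11.4% occur elsewhere in the genome, and it overlaps a gene on the opposite strand. CYP708A2, which hydroxylates the root triterpene thalianol, had 1.21, 1.25 and 1.66 CPM in aff1-3 and 6.48, 6.32 and 5.15 CPM in Wt. BGLU24, a beta-glucosidase gene, had 0.649, 0.598 and 1.03 CPM in aff1-3 and 5.23, 5.15 and 3.23 CPM in Wt. AT2G16005, a lipid-recognition domain gene, was at 14 counts over the aff1-3 samples and 251 over the Wt samples, a 14.3-fold lower share (95% exact interval 8.39 to 26.6). The serine carboxypeptidase-like gene scpl14 had 2, 2 and 1 counts in aff1-3 and 36, 38 and 26 in Wt, a 16-fold lower share (95% exact interval 6.63 to 50.3), and its call was lost when any 1 of the aff1-3 samples, or the first Wt sample, was left out. MLP328, AT3G46340, AT2G43860, PP2-A8 and AT5G38020 completed the 10 largest falls, with log2 differences between -2.81 and -2.06. The MLP328 call was lost without the first or the second aff1-3 sample or the second Wt sample, that of AT3G46340 without the first aff1-3 sample and at equal depth (adjusted p = 0.0797), and that of AT2G43860 without the second Wt sample. In the nutrient lists, F6'H1, which makes iron-binding coumarins, was lower by 0.79 as the only call among 15 iron genes (6.67% lower, against 1.33% of all genes). LBD38, a repressor of nitrate genes, was higher by 0.44 as the only call among 9 nitrate genes (11.1% higher, against 3.39% of all genes). The LBD38 call was lost without the third aff1-3 or the first Wt sample. By the same test 0 of 7 phosphate, 14 ethylene, 8 type-A response regulator, 11 clock and 8 salicylate and immune genes passed, where 4.72% of all genes did. An unadjusted p under 0.05 was reached by 3, 6, 3, 4 and 3 of them, and limma called 1, 1, 1, 2 and 1 and DESeq2 2, 0, 1, 0 and 1.

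Mock-treated seedlings share no sample with the IAA comparison, so the direction of the called genes could be read in other samples. In the mock comparison 1314 genes were called (6.78%). Of the 658 genes higher in aff1-3 after IAA, 629 (95.6%) were also on the higher side with mock and 385 (58.5%) were called higher, where 4.08% of all genes were called higher with mock. For the 257 lower genes, 236 (91.8%) kept their sign and 140 (54.5%) were called lower, where 2.7% of all genes were. The same sign was found for 65.3% of all genes tested. Only 1 higher and 2 lower genes were called in the opposite direction with mock. Across the 915 genes, the differences after IAA and with mock had Spearman's rho of 0.848, and across all 19383 genes 0.415, given as a description across genes, which are not independent replicates.

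Many of the genes above carried their difference without auxin. HRA1 differed by 3.76 after IAA and by 2.96 with mock, LBD41 by 2.26 and 2.97, AOC1 by 2.39 and 2.01, RD29A by 1.83 and 1.46, HSP17.6II by 2.212 and 2.199, ADH1 by -1.38 and -1.20 and PRP3 by -0.71 and -1.08. All 7 genes were called in both treatments. For 272 of the 658 higher and 115 of the 257 lower genes no difference was called with mock. Picked as examples, LAX3 differed by -1.02 after IAA and by -0.20 with mock, PUCHI by -0.75 and 0.23 and CYCD3;1 by -0.68 and -0.17. AT4G17350 differed by -0.57 and 0.13 and LBD25 by 2.06 and 0.09. Of these 5, only LBD25 and AT4G17350 passed the test of that change, which gave adjusted p = 0.0141 for LAX3, 0.0293 for PUCHI and 0.164 for CYCD3;1. IAA lowered LBD25 in both genotypes, from a mean of 12.54 to 1.487 CPM in Wt and from 13.35 to 6.43 CPM in aff1-3.

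**Figure D3:**
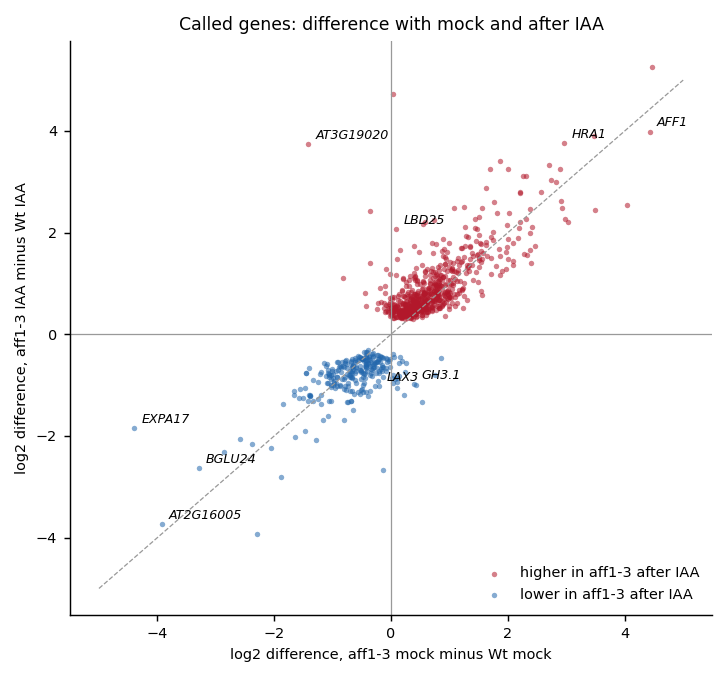
Log2 difference between aff1-3 and Wt with mock (x axis) and after IAA (y axis) for the genes called after IAA, red higher and blue lower in aff1-3; AT2G41450, MAPKKK9 and AT3G60176 are not drawn. The dashed line marks equal differences. Most red points lie right of 0 on the x axis and most blue points left of it, while LBD25 and LAX3 lie near 0.

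Whether a genotype difference itself changed with the treatment was tested by the interaction of genotype and treatment. At an adjusted p below 0.01 this gave 17 genes of 19383 (0.0877%), 7 positive (0.0361%) and 10 negative (0.0516%). Of the 658 higher genes 2 were among them, and of the 257 lower genes 4. Most differences seen after IAA were therefore not shown to differ from those seen with mock. In 8 of the 10 genes with a negative interaction, aff1-3 was called higher than Wt with mock. ZFP2, a zinc finger gene, had 2.86, 4.29 and 3.24 CPM in mock-treated aff1-3 and 0.919, 0.546 and 0.809 CPM in mock-treated Wt, and after IAA 21.7, 17.1 and 19.4 CPM in aff1-3 and 24.5, 20.3 and 26.3 CPM in Wt (interaction -2.45, adjusted p = 0.00135). AT2G41380, a methyltransferase gene, had between 17.3 and 19.8 CPM with mock in aff1-3 and 5.6, 6.25 and 7.48 CPM in Wt, and 38.5, 44.6 and 51 CPM after IAA in aff1-3 and 42, 40.9 and 46.4 CPM in Wt. MAKR4, a membrane-associated kinase regulator with a known part in lateral root formation, had 5.57, 6.67 and 5.7 CPM with mock in aff1-3 and 2.97, 3.02 and 3.74 CPM in Wt, and 71.7, 73.6 and 72.4 CPM after IAA in aff1-3 and 99.8, 99.7 and 99.6 CPM in Wt.

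GH3.1 and AT4G17350, an auxin canalisation protein gene, did not differ past the threshold with mock and were induced less in aff1-3. GH3.1 had 3.75, 4.65 and 4.06 CPM with mock in aff1-3 and 3.47, 2.6 and 3.35 CPM in Wt, without overlap (log2 difference 0.39, adjusted p = 0.0534), and IAA raised it 13.6-fold in aff1-3 and 35.3-fold in Wt (interaction -1.38, adjusted p = 0.000235). AT4G17350 was raised 11.2-fold in aff1-3 and 18.1-fold in Wt (interaction -0.70, adjusted p = 0.00908), a call that was lost when any 1 of the 12 samples was left out.

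The positive interactions were of other kinds. The SAUR genes AT1G29500, SAUR68 and SAUR27 were lower in aff1-3 with mock and close to Wt after IAA. AT1G29500 had 1.93, 1.79 and 1.56 CPM with mock in aff1-3 and 4.85, 5.16 and 4.55 CPM in Wt, and 12, 11.5 and 12.1 CPM after IAA in aff1-3 and 8.75, 9.45 and 9.31 CPM in Wt. Each of these 3 calls was lost when any of at least 9 of the 12 samples was left out. For SAUR68, 33.9% of the exonic 50-base words occur elsewhere in the genome. AT3G01260, a galactose mutarotase-like gene, and AT4G30170, a peroxidase gene, had lower levels than Wt with mock and higher levels after IAA. AT4G30170 had 101, 73.2 and 92.6 CPM with mock in aff1-3 and 181, 187 and 149 CPM in Wt, and 71.3, 69.6 and 77.5 CPM after IAA in aff1-3 and 53.1, 53.7 and 50.9 CPM in Wt. The number of interaction genes ranged from 8 to 30 when 1 sample was left out and was 117 with DESeq2. GH3.1, LBD25, AT3G01260, AT4G30170, AT5G38200, AT2G41380 and MAKR4 passed the interaction test in each of these fits that left out a sample.

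**Figure D4:**
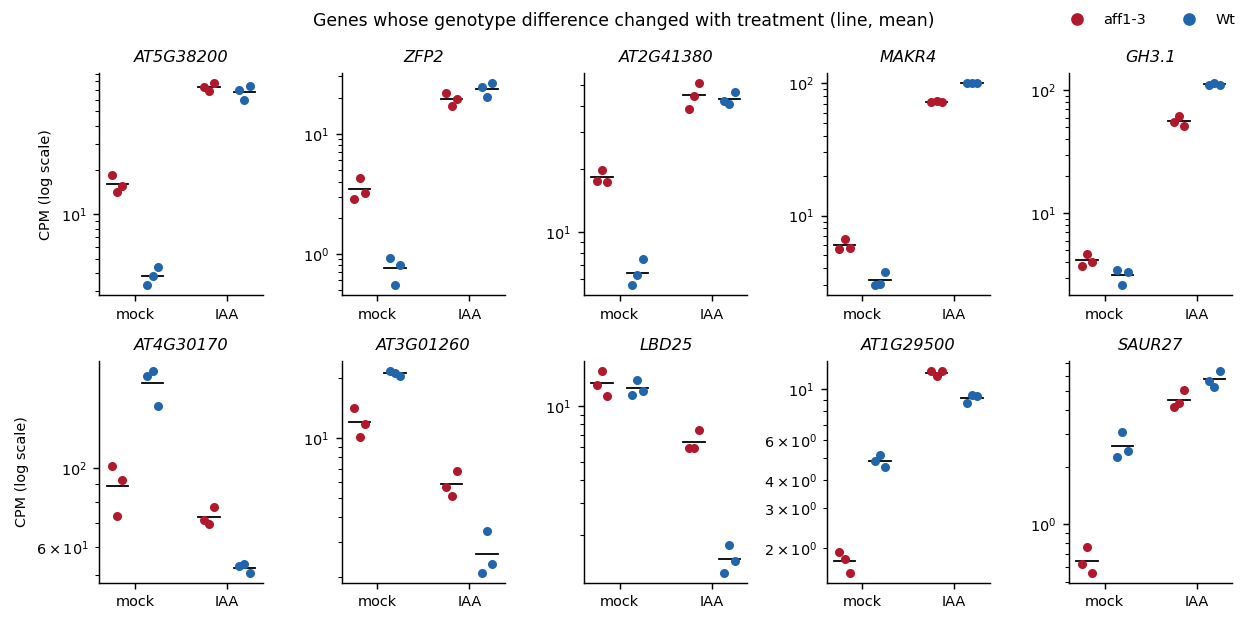
CPM (y axes, log scale, each panel with its own range) of 10 genes with an interaction in mock- and IAA-treated samples, aff1-3 in red left of Wt in blue, 3 samples a group with the mean as a line. ZFP2 and AT2G41380 differ between genotypes with mock and little after IAA, and GH3.1 and LBD25 differ after IAA and little with mock.

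The IAA response of aff1-1 seedlings, which shares no sample with the comparison, gave a second reading of the called genes, and 4.87% of all genes were called in it. Of the 257 genes lower in aff1-3, 47 (18.3%) were induced by IAA in aff1-1, where 3.16% of all genes were, and 6 (2.33%) were repressed, where 1.71% were. Of the 658 genes higher in aff1-3, 39 (5.93%) were induced and 36 (5.47%) repressed. The remaining 204 lower and 583 higher genes were not called as IAA-responsive in aff1-1. GH3.1, AT4G17350, PUCHI and LAX3 were induced there by 3.98, 3.45, 1.76 and 0.51 on the log2 scale, and LBD25 was repressed by 1.29.

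A test of aff1-3 against aff1-1 after IAA, chosen after the data were seen, compared the alleles directly. It called 35 genes of 19383 (0.181%), 14 higher (0.0722%) and 21 lower (0.108%) in aff1-3. Of the 14 hypoxia genes 4 were called, all higher in aff1-3. HRA1 had 32.2, 33.1 and 45 CPM in aff1-3 and 7.02, 6.64 and 15.8 CPM in aff1-1 (log2 difference 1.88, SE 0.26, adjusted p = 0.000403). LBD41, AT4G10265 and AT4G10270 were higher by 1.05, 2.32 and 1.70. Against Wt after IAA, aff1-1 was itself higher for HRA1, LBD41, AT4G10265 and AT4G10270, by 1.88, 1.21, 1.58 and 1.41. Their adjusted p in aff1-1 against Wt lay between 1.79e-05 and 0.00249. HRE2, PCO1, PCO2 and ADH1, which were called in aff1-3 against Wt, differed by 0.78, 0.40, 0.72 and -0.58 between the alleles (adjusted p = 0.395, 0.176, 0.0246 and 0.115). AOC1, RD29A, LTI30 and HSP17.6II differed by 0.29, -0.04, -0.08 and 0.36 between the alleles, with adjusted p from 0.427 to 0.942. Among the falls, BGLU24 had 0.649, 0.598 and 1.03 CPM in aff1-3 and 9.03, 6.01 and 9.07 CPM in aff1-1, above the 3.23 to 5.23 CPM of Wt. AIR1 had 17.1, 17 and 23.1 CPM in aff1-3 and 58.5, 63.4 and 66.1 CPM in aff1-1 (log2 difference -1.73, adjusted p = 5.3e-05). This test uses the same aff1-3 samples as the comparison with Wt, so its values stand beside those against Wt and do not support them.

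The called genes were spread over the genome. On the 5 nuclear chromosomes between 4.27% and 5.4% of the genes tested were called. Within 1 Mb of AFF1 on chromosome 3, 23 of 398 genes were called (5.78%), and within 0.1 Mb 1 of 38. Of 92 plastid and 19 mitochondrial genes tested, edgeR, limma and DESeq2 called 0 (3 had an unadjusted p under 0.05), with the nuclear ribosomal RNA genes left out of the fit.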

How the data were processed

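Whole seedlings were profiled by RNA-seq in 6 groups of 3 samples. The counts deposited by the authors are raw reads per gene: per the labels and the study's methods, single-end reads were aligned with STAR to TAIR10 and uniquely aligned, unambiguous reads were summed per gene with featureCounts. The strand setting is not given in the sources used here. The labels and the methods name different library kits.

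Of 28278 genes, 99% matched the TAIR10.1 annotation. With 4 nuclear rRNA genes removed, the 19383 genes that exceeded 1 CPM in 2 or more samples of any group were tested with the edgeR 4.0.16 quasi-likelihood test (R 4.3.3, TMM factors, 6 group means over all 18 samples) and Benjamini-Hochberg adjustment, at an adjusted p below 0.01. Each SE is the size of the log2 difference divided by the square root of the F statistic of that test, and was not estimated separately. The study used limma, which was run as an alternative (limma 3.58.1), as was DESeq2 1.42.0. The scripts were tested on simulated data. Exact permutation of 3 against 3 samples cannot give a p under 0.1 and was not used. Total counts per group are given in the results.

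Genes were named by rule: with at least 20 counts on average in the higher group and no overlap, the 10 largest rises and falls and the 5 smallest p in each direction, up to 4 called members of each list, every interaction gene, genes at up to 3 counts in one genotype and at least 20 in the other, AFF1 and the genes the study names. Other list members were named after their values were seen. The members and lists were chosen with earlier results of these data known.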

Additional observations from a re-analysis of the deposited data

Results flagged for a closer look

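The genotype difference changed with the treatment in 17 genes, by the interaction test of edgeR with Benjamini-Hochberg adjustment, given here as the log2 difference between aff1-3 and Wt after IAA minus that with mock. The values were -2.451 for ZFP2, -1.936 for AT5G38200, -1.628 for AT5G41740, -1.549 for AT1G74440, -1.441 for AT2G41380, -1.378 for GH3.1, -1.319 for MAKR4, -1.036 for AIR12, -0.894 for AT1G33790 and -0.698 for AT4G17350. On the positive side they were 4.881 for AT1G05660, 1.975 for LBD25, 1.935 for AT3G01260, 1.824 for AT1G29500, 1.682 for SAUR68, 1.63 for SAUR27 and 1.422 for AT4G30170. AT1G05660, a pectin lyase-like gene, had only 7, 9 and 5 counts in IAA-treated aff1-3 and 1, 7 and 1 in IAA-treated Wt. AT5G41740, a disease resistance gene, shares 13.3% of its exonic 50-base words with other places in the genome. AT1G74440 overlaps genes on the opposite strand.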

How the results depend on the processing

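The 915 genes called after IAA became 1752 at an adjusted p below 0.05, 117 with an added log2 difference of at least 1.5, 1387 with limma, and between 509 and 687 when 1 sample was left out. With mock the count of 1314 became 2493, 146 and between 874 (without the first Wt sample) and 1245 in the same order, limma giving 1072. The 17 interaction genes became 98, 10, 11 with limma, 117 with DESeq2, 43 with no filter on low counts, and between 8 and 30 with 1 sample left out, a change of over 1.5 times for every sample but the first mock-treated Wt sample (14). The highest, 30, came without the first mock-treated aff1-3 or the third mock-treated Wt sample. The share of lower genes repressed by IAA in aff1-1 was 4.35% with DESeq2, where 2.42% of all genes were. The interaction of LBD19, which was at or near 0 counts with mock, turned to -1.438 (adjusted p = 0.908) at equal depth. The cause of these changes was not tested. Same-numbered samples did not deviate together (correlations of 0.013, -0.033 and -0.033 between IAA-treated aff1-3 and Wt, and 0.072, 0.062 and 0.048 between IAA- and mock-treated aff1-3, all under 0.1), so the numbers were not taken as pairs. A replicate block gave 942 genes after IAA, 1383 with mock and 24 interactions. Leaving AT2G41450 and MAPKKK9 out, an alternative chosen after seeing the data, gave 926, 1312 and 17. For the named genes after IAA, 969 values under the alternatives stayed on their side of the threshold, 90 no longer passed, 3 passed newly and 0 changed direction. Depth limits genes at few counts, such as scpl14 and AT5G09570.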

Other observations

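Some large differences after IAA lay in genes that no list held, named here after their values were seen. ASN1, an asparagine synthetase, was higher by 2.63 on the log2 scale (80.8, 121 and 101 CPM in aff1-3). TAT3, a tyrosine aminotransferase, had 19.1, 35 and 25.4 CPM in aff1-3 and 2.9, 4.8 and 3.45 CPM in Wt. MSRB7, a methionine sulfoxide reductase, had 111, 123 and 144 CPM in aff1-3 and 18.6, 18.1 and 14.5 CPM in Wt. In these genes the aff1-3 samples stood above all Wt samples, as in every gene called higher but MAPKKK9.

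CSD2, a copper/zinc superoxide dismutase, and CCS, its copper chaperone, differed between the alleles after IAA. They were lower in aff1-3 than in aff1-1 by 0.53 and 0.40 on the log2 scale. Mean CSD2 after IAA was 306 CPM in aff1-3, 442.9 CPM in aff1-1 and 327.3 CPM in Wt. The CCS means were 103.7, 137 and 120.3 CPM in the same order. Compared with Wt, aff1-3 passed the threshold for neither gene, while aff1-1 was called higher for CSD2 but not for CCS.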
